A study of Mus musculus with 6 samples.

Results

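The mitochondrial ribosomal protein genes are the nuclear genes whose protein-coding symbols begin with Mrpl or Mrps followed by a number. In a gene-level RNA-seq table of mouse hearts, 78 of 20254 genes met that rule, and all 78 passed the filter on low values that left 13823 genes to be tested. Of the 78, 49 carry an Mrpl and 29 an Mrps symbol. By the subunit that holds the protein, 51 belong to the large subunit (Mrps18a and Mrps30 among them), 26 to the small subunit, and 1, Mrps36, encodes a protein of the 2-oxoglutarate dehydrogenase complex that keeps its older ribosomal name. Whole hearts of C57BL/6 mice were compared between 3 wild-type (WT) and 3 Trdn-as KO libraries. In each genotype, replicates 1 and 2 came from hearts of 14 months and replicate 3 from a heart of 5 months, so that each genotype at 5 months is a single library. The labels give neither the KO allele nor whether any hearts were littermates. They do not state that each library is a separate animal, and p-values measure the spread between these libraries only.

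Mitochondrial ribosomes translate the few proteins that mitochondrial DNA encodes, all of them core parts of the oxidative phosphorylation complexes. Their RNAs are made inside the organelle, whereas every mitoribosomal protein is encoded in the nucleus, made in the cytosol and imported. Heart muscle, packed with mitochondria, depends on this pathway for its ATP, and inherited defects of several of these proteins, MRPL3 and MRPL44 among them, cause cardiomyopathy in people. Triadin, the product of Trdn, anchors the calcium release machinery of the sarcoplasmic reticulum, and Trdn-as is a transcript from the opposite strand of that gene.

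The deposited values are normalized gene-level signal from Salmon and are not whole read counts, so the number of reads behind a value is unknown. Their sums were 19810148 to 23510139 units per library, of which 40.0% to 49.4% lay on mitochondrially encoded genes. Trdn itself was lower in KO than in WT at each replicate number, reading 5702, 5600 and 9104 across the WT libraries and 3429, 3460 and 5606 across the KO libraries, and was not called (log2 difference −0.71, SE 0.10, adjusted p = 0.261). The Trdn-as transcript was not analysed here. The sum of 4 Y-linked genes (Ddx3y, Eif2s3y, Kdm5d and Uty) was 54.9 and 82.2 in replicate 2 of WT and KO and 2496 to 4482 in the other 4 libraries. All 10 cardiomyocyte markers, the sarcomere genes Myh6, Myl2 and Tnnt2 among them, were detected in every library. Spearman correlations over all tested genes were 0.968 to 0.987 between libraries of the same age and 0.932 to 0.946 between libraries of different age.

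Relative to exon length, the mitoribosomal protein genes stood at a median of 393 signal units per kb, against 40.9 for all 17501 protein-coding genes of the table. That larger set holds values down to 0, whereas all 78 members passed the filter on low values. Mrpl42, a large-subunit protein without a bacterial counterpart, had the highest mean level per kb (5801), followed by Mrpl33 (2008) and Mrps21 (1888), which have bacterial homologues in the large and small subunit. The lowest levels per kb belonged to Mrpl17 (69.3), Mrps26 (87.2) and Mrpl57 (95.0). Their annotated exons cover 7605, 4278 and 2877 bases, against a member median of 1419. Before division by length their mean values were 527, 373 and 273, against a member median of 607. Among the 4 hearts of 14 months the values of 76 of the 78 genes (97.4%) stayed within 0.5 log2 units of each other, which held for 65.2% of all tested genes. Part of the level of some members cannot be assigned with certainty, because 20 of them share at least 10% of their 31-base words with transcripts of other genes, mostly pseudogenes. The shared part is 26.0% for Mrpl42, 33.3% for Mrpl33 and 19.4% for Mrps21. It reaches 53.0% for Mrpl23, whose processed pseudogene Mrpl23-ps1 stood at 422, 486 and 924 across the WT libraries and at 392, 435 and 647 across the KO libraries, above Mrpl23 itself (70.2 to 140).

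The first comparison asked whether loss of Trdn-as altered these genes. Summed over the 78 genes, WT replicates 1, 2 and 3 reached 47554, 47620 and 84348 units, and the KO replicates 46404, 44955 and 62767. Both 5-month libraries lay above all 4 of 14 months, and WT replicate 3 was the highest. With age as a covariate, no member passed the test between KO and WT (limma, adjusted p under 0.05 over all genes), and the background was the same, with 0.0% of the 13823 genes called. Unadjusted p fell under 0.05 for 4 members (5.13%) and for 841 genes of all tested (6.08%). The fitted difference was below 0 for 76 of the 78 genes, with a median of −0.19 on the log2 scale. Over all genes it was below 0 for 7455 of 13823, with a median of −0.023. The shift was not particular to the members. Cytosolic ribosomal proteins were below 0 in 77 of 81 genes (median −0.21) and nuclear subunits of oxidative phosphorylation in 77 of 80 (median −0.22). Mrps22 and Mrpl23 were the members with a fitted difference above 0. With the libraries scaled to their totals without mitochondrially encoded genes, 60 members lay below 0 and the median was −0.080, against 0.081 over all genes. In a bulk tissue, fewer cells of a type and less RNA per cell cannot be told apart.

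Most of that shift lay in the 5-month pair. The median KO minus WT difference was −0.048 between the libraries numbered 1, −0.078 between those numbered 2 and −0.43 between those numbered 3. In the last pair KO was below WT for 77 of the 78 members, all but Mrpl35, while 54.1% of all tested genes were below WT there. With the 14-month libraries alone, which is also the value when either 5-month library is left out, the median was −0.065 and 58 members lay below 0. In the pair numbered 3 the median was −0.55 for cytosolic ribosomal proteins and −0.52 for nuclear subunits of oxidative phosphorylation. Other short genes shifted in that pair as well. Among genes other than the members the median was −0.46 for coding transcripts under 1 kb and −0.35 for those of 1 to 1.5 kb, against −0.45 and −0.37 for members of those lengths. At 3 kb or more it was 0.10, against −0.40 for the members. Markers of several cell types were lower in KO in the 5-month pair too: 10 of 10 cardiomyocyte (median −0.65), 8 of 8 fibroblast (−0.71), 7 of 8 macrophage (−0.58), 7 of 7 adipocyte (−1.04) and 5 of 5 erythroid markers (−2.18), and 4 of 8 endothelial markers (−0.11). At 14 months the medians for replicate numbers 1 and 2 were −0.11 and −0.027 for cardiomyocyte and 0.017 and −0.22 for fibroblast markers. They were 0.068 and −0.24 for macrophage and 0.17 and −0.26 for endothelial markers. For adipocyte markers they were 1.01 and 1.38, and for erythroid markers −2.82 and 1.52. The summed cardiomyocyte level was 1427330 in WT replicate 3 and 868872 in KO replicate 3, and 757518 to 831780 at 14 months. The part of cell content, transcript length or the single libraries in the difference was not tested.

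**Figure D1:**
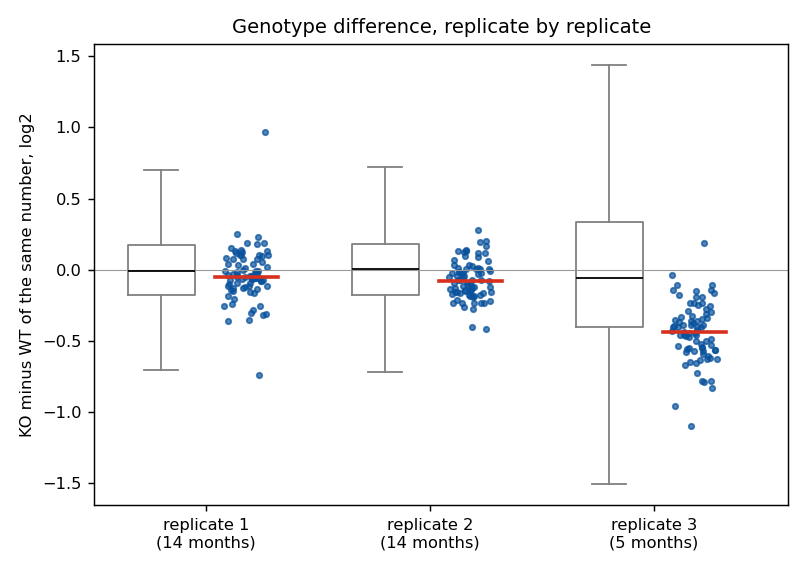
KO minus WT on the log2 scale for libraries of the same replicate number; grey boxes show the quartiles of all other tested genes with whiskers to 1.5 times the quartile range, blue points are the 78 mitoribosomal protein genes and red lines their medians. The members centre near 0 at 14 months (medians −0.048 and −0.078) and at −0.43 in the 5-month pair.

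Mrpl19, a large-subunit protein at the interface with the small subunit, had the smallest p of the members. It read 608, 547 and 672 across the WT libraries and 364, 414 and 314 across the KO libraries. Every KO library lay below every WT library at both ages. The fitted KO level was 59.7% of WT (log2 difference −0.75, SE 0.15, 95% interval −1.09 to −0.40), yet the gene was not called, with an adjusted p of 0.721 (0.396 to 1.00 over the alternatives). The other members among the 5 smallest p were also not called. They were the small-subunit genes Mrps27 (−0.33, SE 0.12), a pentatricopeptide repeat protein, and Mrps25 (−0.30, SE 0.12), and the large-subunit genes Mrpl44 (−0.42, SE 0.17), which carries a ribonuclease III fold, and Mrpl2 (−0.26, SE 0.12), a core protein of the large subunit. KO libraries all lay below WT libraries for 4 members (5.13%; 2.89% of all genes), namely Mrpl19, Mrpl44, Mrps11 (247, 231 and 297 in WT; 200, 228 and 195 in KO) and Mrpl39 (893, 891 and 1158 in WT; 810, 880 and 795 in KO). No member had all KO libraries above WT (2.88% of all genes).

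Age separated the libraries far more. At 14 months 50 members were lower than at 5 months and 1, Mrps2, was higher (limma with genotype as covariate, adjusted p under 0.05 over all genes). The background was 16.0% of all genes lower and 17.7% higher, or 33.7% in either direction. The median difference of the members was −0.54 on the log2 scale, against 0.022 over all genes, and 71 of the 78 lay below 0. For 57 members (73.1%; 25.0% of all genes) every 14-month library lay below both 5-month libraries. For 2 members, Mrpl38 and Mrps2, every 14-month library lay above both (2.56%; 25.7% of all genes).

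The age comparison rests on 2 libraries of 5 months, 1 per genotype, and the labels name no library batch, so age and any preparation difference between those libraries and the rest cannot be told apart. Without both replicate 2 libraries, the pair with low Y-linked signal, 32 members were called lower and 1 higher. When the libraries were scaled to their totals without mitochondrially encoded genes, the median of all genes moved from 0.022 to 0.22. The share of higher calls among all calls then rose from 52.5% to 73.4%, and 33 members were called lower and 2 higher. Such scaling moves all genes of a library alike. The distance of the members from the median of all genes, −0.56 under both scalings, was therefore bound to stay.

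**Figure D2:**
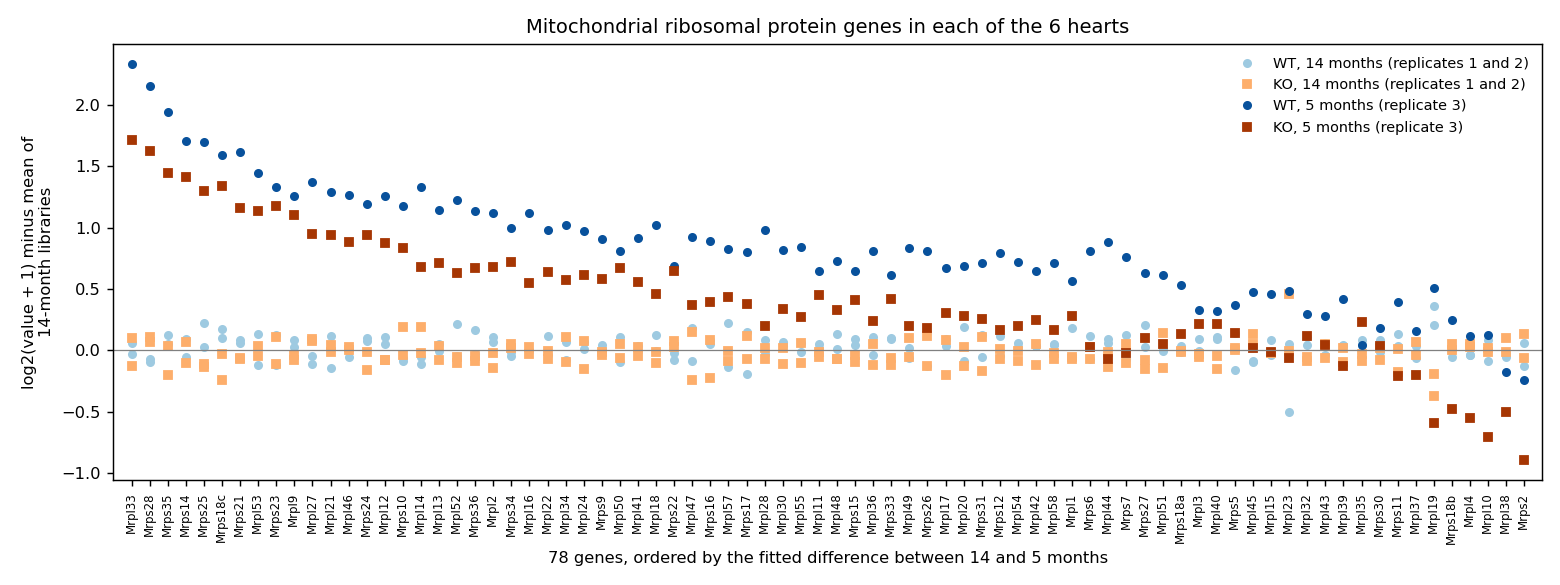
The 78 genes along the horizontal axis, ordered by the fitted age difference; the vertical axis is log2(value + 1) of each library minus the mean of the 4 libraries of 14 months, with circles for WT, squares for KO, light for 14 months and dark for 5 months. The 5-month libraries lie above the 14-month ones for 57 genes, and the dark circles (WT) mostly above the dark squares (KO).

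The largest difference was that of Mrpl33 (ENSMUSG00000106918, chr5:31596935-31664384 of mm10, plus strand), which encodes one of the smallest proteins of the large subunit. At 14 months it read 485 and 458 in the WT hearts and 427 and 500 in the KO hearts, and at 5 months 2359 in the WT heart and 1530 in the KO heart. The fitted level was 4.07-fold higher at 5 months (log2 difference 14 minus 5 months −2.02, SE 0.16, adjusted p = 0.000278), and both genotypes moved the same way. Its value is uncertain to the extent of the shared sequence given above.

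Of the 8 members with the largest fall at 14 months, 6 encode small-subunit proteins. Mrps28 (chr3:8802146-8923918) had values of 227, 223, 249 and 257 at 14 months and 1067 and 736 at 5 months (−1.89, SE 0.17). Mrps35 (chr6:147042764-147073991), a protein without a bacterial counterpart, had 549, 576, 459 and 541 against 2039 and 1441 (−1.69, SE 0.13). Mrps14, a homologue of a bacterial protein of the small-subunit head, had 296, 329, 288 and 324 against 1011 and 824 (−1.56, SE 0.14). In all of these the 5-month values stood clear of the 14-month values, with WT above KO at 5 months. Mrps25 (−1.50, SE 0.12), Mrps18c (−1.47, SE 0.14) and Mrps21 (−1.39, SE 0.12) followed, and Mrpl53 (−1.29, SE 0.14) was the other large-subunit gene of the 8. Mrps18c is 1 of 3 mammalian homologues of a single bacterial protein; the fitted differences of the others were −0.33 for Mrps18a and 0.12 for Mrps18b, neither called. All 31-base words of Mrpl53 also occur in the overlapping model Gm42688, and Mrps18c shares 30.4%, so these 2 values are uncertain.

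Mrps2, a homologue of a bacterial protein at the back of the small subunit, was the exception. At 14 months it read 557 and 489 in the WT hearts and 586 and 512 in the KO hearts, against 452 (WT) and 287 (KO) at 5 months. The 14-month level was 1.48-fold higher (0.57, SE 0.18, adjusted p = 0.0442), and the gap was carried mainly by the KO heart of 5 months. Without that library the difference was 0.21 and not called.

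By subunit, 32 of 51 large-subunit genes were called lower and none higher, with a median of −0.52. In the small subunit 17 of 26 were lower and 1 higher, with a median of −0.62. Of 47 members classed as having a bacterial homologue 32 were lower (median −0.59), and of 30 classed as without one 17 were lower (median −0.49). Mrps18b (0.12, not called) was classed among the 30, although it is a homologue of a bacterial protein, as stated above. The quartiles over all members ran from −0.90 to −0.33, and the difference between these classes was not tested. Mrps36, which is no ribosomal protein, was also lower (−0.90, SE 0.13). It was called lower under 14 of 15 alternatives, and its difference ranged up to −0.012. As it shares 39.9% of its 31-base words with other genes, its value is uncertain.

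Members at functional sites of the ribosome included called and uncalled genes. In the stalk that recruits elongation factors, Mrpl12 fell most: its values of 1119, 1161, 1018 and 1021 at 14 months compare with 2582 and 1977 at 5 months (−1.07, SE 0.11, adjusted p = 0.000764). Mrpl11, at the stalk base, was lower by a smaller margin (−0.55, SE 0.12). Mrpl10, which anchors Mrpl12 in the stalk, had 667, 749, 716 and 703 at 14 months and 773 and 434 at 5 months (0.29, SE 0.19, not called). The 5-month WT library was thus the highest for Mrpl10 and the 5-month KO library the lowest. Mrpl45, which ties the ribosome to the inner membrane (−0.25, SE 0.16), Mrpl3, near the peptidyl transferase centre (−0.27, SE 0.11), and Mrpl44 (−0.40, SE 0.18) were not called. In the small subunit Mrps12 of the decoding centre missed the threshold (−0.48, SE 0.17, adjusted p = 0.0585). Mrps22 (−0.67, SE 0.13), Mrps16 (−0.64, SE 0.15) and Mrps34 (−0.86, SE 0.13), the last needed for a stable small subunit, were lower at 14 months. Among the genes of highest and lowest level per kb, Mrpl42 (−0.45), Mrpl17 (−0.49) and Mrpl57 (−0.63) were lower and Mrps26 (−0.49) was not called.

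The question whether the genotypes differed in their age difference was put to an interaction term. The median over the members was −0.78 within WT and −0.37 within KO, each against 1 library of 5 months, where all genes stood at 0.012 and 0.014. The members kept a similar order in the 2 genotypes (Spearman 0.856 over 78 genes, which share the library of each arm; 0.570 over all genes). In the fit with an interaction term (KO minus WT at 5 months minus the same at 14 months), no member was called, with a smallest adjusted p of 0.0651 and a background of 1.19% of all genes lower and 0.883% higher (2.08% in either direction). Unadjusted p fell under 0.05 for 24 members (30.8%) and for 23.2% of all genes. The term was below 0 for 75 of the 78 genes, with a median of −0.39, and the exceptions were Mrps18c, Mrpl40 and Mrpl35. Over all genes it was below 0 for 7383 of 13823, with a median of −0.050. It was also below 0 for 80 of 81 cytosolic ribosomal proteins (median −0.50). Of the nuclear subunits of oxidative phosphorylation, 79 of 80 were below 0 (median −0.48). With the libraries scaled without mitochondrially encoded genes, the median of the members was −0.11 and that of all genes 0.22.

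**Figure D3:**
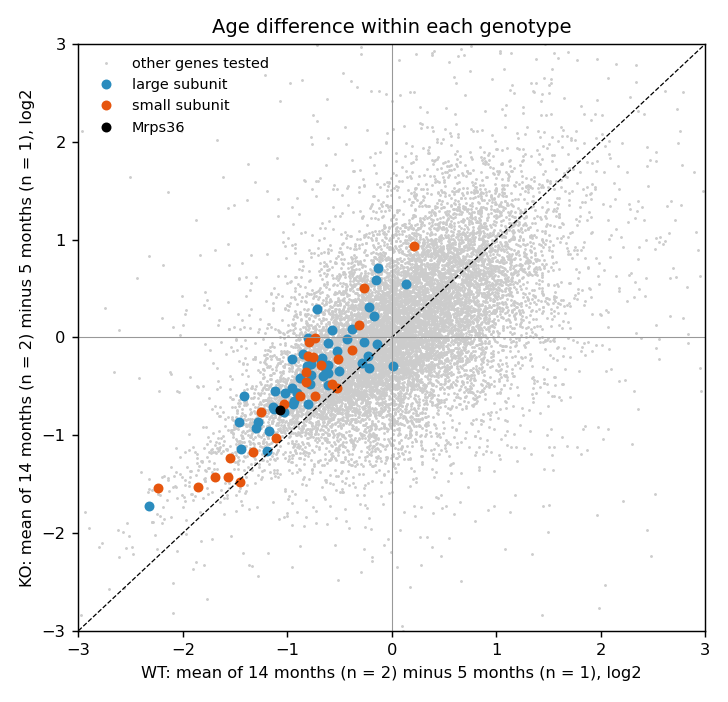
Mean of the 2 libraries of 14 months minus the 1 library of 5 months, on the log2 scale, in WT (horizontal) and KO (vertical); blue and orange points are large- and small-subunit genes, grey points all other tested genes, and the dashed line marks equal differences; the few other genes beyond 3 on either axis are not drawn. Of the 78 members 75 lie above the line, with medians of −0.78 in WT and −0.37 in KO.

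The 5 members with the smallest p for the interaction are all large-subunit genes, none of them called. Mrpl4, a homologue of a bacterial protein lining the exit tunnel, had 1061, 1061 and 1179 in WT and 1125, 1112 and 742 in KO (interaction −0.74, SE 0.16, adjusted p = 0.0651). The KO heart of 5 months alone stood low for this gene. Mrpl10 (−0.84, SE 0.19), Mrpl28 (−0.73, SE 0.18) and Mrpl14 (−0.82, SE 0.21) had adjusted p values of 0.0721, 0.0771 and 0.0849. Mrpl44 had 558, 573 and 988 in WT and 530, 488 and 509 in KO (−0.80, SE 0.19, adjusted p = 0.0746). In this gene the WT heart of 5 months stood high and the KO heart of 5 months lay among those of 14 months.

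Transcript length moved with the age difference across the whole table. Genes other than the members whose longest coding transcript was under 1 kb had a median age difference of −0.66, with 50.7% called lower, and those of 3 kb or more had 0.18, with 8.41% called lower. The members are short, with a median of 1327.5 bases against 3034 for all protein-coding genes. Members under 1 kb had a median of −0.80 (20 of 24 lower), those of 1 to 1.5 kb −0.70 (14 of 22), those of 1.5 to 2 kb −0.48 (3 of 7), those of 2 to 3 kb −0.53 (5 of 8) and those of 3 kb or more −0.42 (8 of 17). The long members were therefore below the other long genes, and Mrps25 and Mrps35, at 6073 and 4162 bases, were among the largest falls. With trends of the log2 values on length and GC content removed from every library, 28 members were called lower and 4 higher, and the median was −0.26, with 54 of the 78 below 0. Under that correction 18 members moved from below to above 0 and Mrpl19 from above to below. Of the 18, 9 had been called lower and are all named here, after their values were seen: Mrpl42 (0.46, which then passed the test in the other direction), Mrps33 (0.32), Mrps31 (0.22), Mrpl36 (0.18), Mrpl20 (0.16), Mrpl55 (0.091), Mrps22 (0.083), Mrps15 (0.077) and Mrpl22 (0.013). The correction also took the median KO minus WT difference of the members to −0.063.

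**Figure D4:**
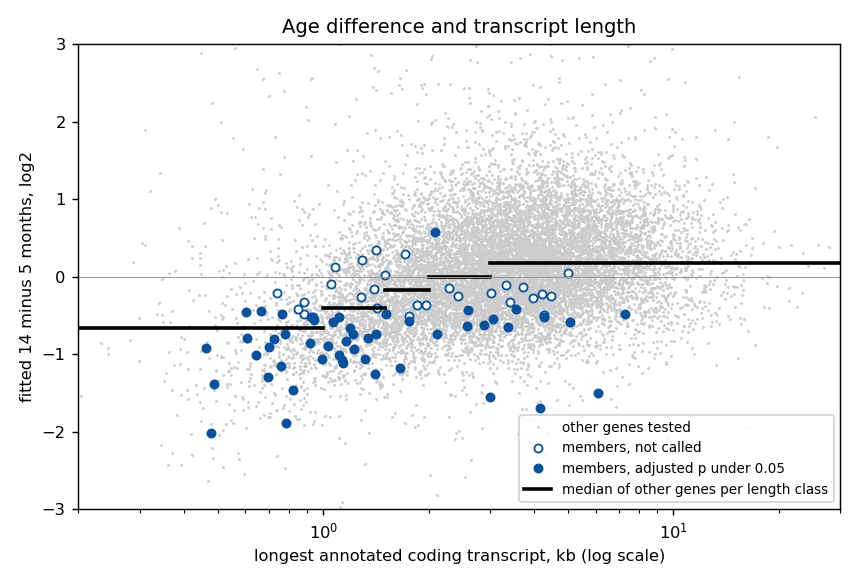
Fitted difference between 14 and 5 months (log2) against the length of the longest annotated coding transcript in kb on a log axis; filled blue points are members with an adjusted p under 0.05, open points the other members, grey points all other tested genes and black bars the medians of those genes per length class, with other genes beyond 3 not drawn. The black bars climb from −0.66 under 1 kb to 0.18 at 3 kb or more, and the members of 3 kb or more have a median of −0.42.

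The other genes of the mitochondrial translation pathway were read from lists drawn up with earlier results of these data known. Of 5 mitoribosomal proteins under other symbols, 3 were lower at 14 months: Chchd1 (475, 471, 478 and 410 against 1469 and 1004; −1.41, SE 0.15), Aurkaip1 (−0.59) and Dap3 (−0.48), a GTP-binding protein of the small subunit. Ptcd3, the most abundant of them, was not called (−0.20, SE 0.12). Of 28 assembly and ribosomal RNA modification genes 9 were lower and 2 higher, with a median of −0.33. Lars2, the leucyl-tRNA synthetase of the organelle, had 2451, 2363, 1836 and 2507 at 14 months and 6533 and 4675 at 5 months (−1.28, SE 0.16). The GTPase Gtpbp10 (−0.90), the ribosomal RNA methyltransferase Mrm2 (−0.89) and Rcc1l (−0.80) were lower too.

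Of 15 translation factors 5 were lower at 14 months and none higher, with a median of −0.31: Mtrf1 (−0.87), the initiation factor Mtif2 (−0.66), Guf1 (−0.54) and the elongation factor Tsfm (−0.47) were among the 5, while Gfm1, the most abundant, was not called (0.36, SE 0.12). Tufm, which delivers aminoacyl-tRNA to the ribosome, passed the interaction test, with 2175, 2185 and 2680 in WT and 2242, 2281 and 1430 in KO (−0.96, adjusted p = 0.0320). Of 20 genes for charging mitochondrial tRNAs 3 were lower, Lars2 and Gatb (−0.82) among them, and 2 higher, Sars2 (1.00) and Vars2 (0.95), shares no larger than the 16.0% and 17.7% of all genes. The phenylalanyl-tRNA synthetase gene Fars2 also passed the interaction test (−1.36, adjusted p = 0.0331). Each arm of that test at 5 months is 1 library, assumed to vary like the 14-month pairs. Both calls held under 5 of 11 alternatives and were lost under the others, with adjusted p values up to 0.183 for Tufm and 0.177 for Fars2.

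Of 24 genes of mitochondrial transcription and RNA processing 6 were lower, including Hsd17b10 (−0.97), the elongation factor Tefm (−0.80) and the DNA-binding protein Ssbp1 (−0.80), and 3 were higher, including the RNA-binding protein Slirp (0.78). Grsf1, the most abundant of them, was not called (0.21, SE 0.11). Among the 13 proteins that mitochondrial ribosomes make, the transcripts of mt-Atp8 (−1.55), mt-Nd3 (−0.58) and mt-Nd4l (−0.53) were lower and that of mt-Co2 (1.08) higher, and mt-Co1, the most abundant, was not called (−0.18, SE 0.16). mt-Atp8 and mt-Nd4l overlap their neighbours on the mitochondrial genome, so their values are uncertain. mt-Atp8, mt-Nd3 and mt-Nd4l are also the shortest of the 13 transcripts (204, 348 and 297 bases), and the part of length was not tested. Of 14 regulators of nuclear genes for mitochondria, 7.14% were lower and 14.3% higher, below the 16.0% and 17.7% of all genes. Esrra was lower (−0.63, SE 0.13) and Yy1 (1.07, SE 0.13) and Esrrb (0.92, SE 0.12) higher. The most abundant, the coactivator gene Ppargc1a, had 3213, 1794 and 2597 in WT and 1710, 1920 and 2149 in KO (−0.18, SE 0.21, not called). Nuclear subunits of oxidative phosphorylation were lower in 65 of 80 genes and higher in 3 (median −1.05), and cytosolic ribosomal proteins lower in 71 of 81 (median −0.96). Transcript length, which moved with the age difference across the whole table, was not accounted for in these group values, and its part was not tested.

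**Figure D5:**
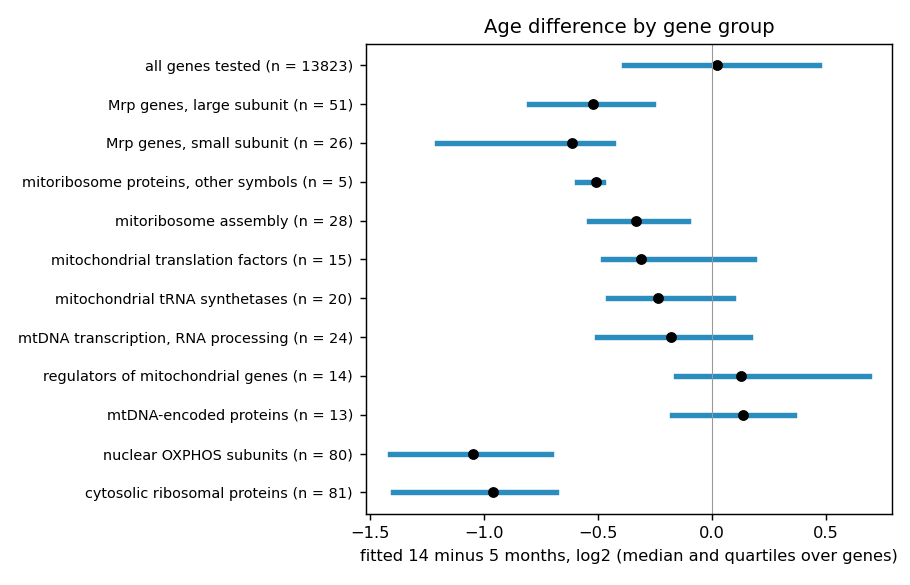
Median (black point) and quartiles (blue bar) over genes of the fitted difference between 14 and 5 months, in log2, for each gene group, with the number of genes tested beside its name. The subunits of the mitoribosome (medians −0.52 and −0.62) lie between all genes (0.022) and the nuclear oxidative phosphorylation subunits (−1.05). Transcript length was not accounted for in these values.

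Cell type markers were read beside the age difference. Cardiomyocyte markers were lower in 6 of 10 genes at 14 months and higher in 1, with a median of −0.59. The background was 16.0% of all genes lower and 17.7% higher. Within WT the cardiomyocyte median was −1.04 and within KO −0.34, against −0.78 and −0.37 for the members. Medians of the fibroblast, endothelial, macrophage, adipocyte and erythroid markers were 0.49, 0.39, −0.052, 0.15 and 1.79. Fibroblast markers were lower in 1 of 8 and higher in 3 (summed level 18150 to 20626 at 14 months, 20377 in WT and 12993 in KO at 5 months). Endothelial markers were lower in 2 of 8 and higher in 4 (19000 to 23750 at 14 months; 20817 and 20590 at 5 months). Macrophage markers were higher in 2 of 8 (3523 to 4932; 4651 and 3252). None of the 7 adipocyte markers tested (641 to 2383; 1248 and 696) and none of the 5 erythroid markers tested (6785 to 66893; 13774 and 2727) was called, and Lep and Slc4a1 were at 0 in at least 1 library. The part of these cells in the age difference was not tested.

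Promoter sequences of the members are described next, and their part in the age difference was not tested. RefSeq windows on GRCm38.p6, from 250 bases before to 50 bases after the start, were found for 69 of the 78 members (75 windows). On either strand, the ETS-family core CCGGAAG occurred in 26 of the 75 windows (34.7%; 11.6% of the 21262 windows of protein-coding genes). The motif of nuclear respiratory factor 1 (NRF1) occurred in 13 (17.3%; 6.38%) and the YY1 motif AANATGGCG in 11 (14.7%; 3.12%). These 3 motifs were present in 42 of 69 members (60.9%), counting any of them, and in 20.9% of the protein-coding genes of the same table. The median position of the matches was −17 bases from the start for ETS, −43.5 for NRF1 and 16 for YY1. The ERR motif CAAGGTCA occurred in 2 windows (2.67%; 1.34%), the E-box CACGTG in 7 (9.33%; 7.84%), TATAAA in 5 (6.67%; 12.6%) and the CREB motif TGACGTCA in 2 (2.67%; 2.23%). Of the 74 matches in these windows no pair of different motifs overlapped, and a match describes the sequence, not binding.

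Members were also counted by motif and age call. ETS was in 18 of 45 members called lower (40.0%) and in 8 of the other 24 (33.3%), NRF1 in 8 (17.8%) and 5 (20.8%), and YY1 in 5 (11.1%) and 6 (25.0%). The windows of 5 members follow, 250 bases before to 30 bases after the start and read 5′ to 3′ along the gene, with matches to the 3 motifs in capitals. They were chosen after their values were seen, and Mrpl27 (−1.16, SE 0.16) lies outside the rule for named genes. Mrps21 (chr3:95871485-95871764, minus strand) and Mrpl27 (chr11:94653541-94653820, plus strand) fell with age and hold 2 of these 3 motifs each. Mrpl27 shares 49.2% of its sequence words with transcripts of other genes, and Mrps21 shares 19.4%, so both values are uncertain. Mrpl12 (chr11:120484387-120484666, plus strand) fell and holds 1. Mrpl44 (chr1:79775768-79776047, plus strand) also holds an NRF1 match and was not called. Mrps2 (chr2:28467816-28468095, plus strand) was higher and holds none. The 5 windows do not stand for the members. Of the 8 members with at least 2 of the motifs, Mrps26, Mrps27 and Mrps18a were not called and the rest were lower.
Mrps21: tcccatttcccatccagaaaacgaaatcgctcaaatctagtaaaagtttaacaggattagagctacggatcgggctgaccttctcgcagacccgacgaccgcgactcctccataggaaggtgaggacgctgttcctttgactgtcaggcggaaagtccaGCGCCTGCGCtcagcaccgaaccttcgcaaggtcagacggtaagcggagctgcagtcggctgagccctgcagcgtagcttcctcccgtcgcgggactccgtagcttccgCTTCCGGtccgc
Mrpl27: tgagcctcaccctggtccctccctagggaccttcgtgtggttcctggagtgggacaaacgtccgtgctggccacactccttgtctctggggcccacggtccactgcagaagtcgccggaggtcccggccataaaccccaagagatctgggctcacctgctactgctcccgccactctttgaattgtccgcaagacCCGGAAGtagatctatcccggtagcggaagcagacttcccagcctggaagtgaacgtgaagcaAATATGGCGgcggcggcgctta
Mrpl12: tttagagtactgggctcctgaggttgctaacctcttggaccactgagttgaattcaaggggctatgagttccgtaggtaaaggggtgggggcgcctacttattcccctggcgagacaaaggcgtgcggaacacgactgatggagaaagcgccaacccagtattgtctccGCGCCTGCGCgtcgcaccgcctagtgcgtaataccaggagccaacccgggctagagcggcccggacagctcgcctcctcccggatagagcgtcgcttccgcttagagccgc
Mrpl44: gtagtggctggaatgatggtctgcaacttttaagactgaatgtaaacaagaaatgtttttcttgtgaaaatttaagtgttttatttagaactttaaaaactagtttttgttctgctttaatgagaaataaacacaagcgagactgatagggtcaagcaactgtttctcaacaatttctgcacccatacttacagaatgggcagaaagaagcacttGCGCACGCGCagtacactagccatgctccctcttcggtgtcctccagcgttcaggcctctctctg
Mrps2: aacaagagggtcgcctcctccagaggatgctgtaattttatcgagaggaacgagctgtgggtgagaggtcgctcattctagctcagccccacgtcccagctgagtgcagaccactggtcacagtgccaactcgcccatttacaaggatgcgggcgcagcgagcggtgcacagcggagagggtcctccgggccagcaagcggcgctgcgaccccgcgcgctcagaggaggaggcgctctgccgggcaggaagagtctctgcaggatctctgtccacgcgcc

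The Mrps21 window also holds an ERR match at −64, left in lower case. In Mrps21 the capitals mark NRF1 at −91 and the reverse complement of the ETS core at 19. In Mrpl27 they mark ETS at −55 and YY1 at 9, in Mrpl12 NRF1 at −81 and in Mrpl44 NRF1 at −35, each position being that of the first base relative to the start.

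Many of the members start beside another gene. A protein-coding gene on the opposite strand started within 1000 bases for 33 of 78 members (42.3%), against 2386 of the 22028 protein-coding genes of the annotation (10.8%). Of 26 tested partners that are no member, 5 were lower and 5 higher at 14 months, with a median of −0.19. These shares are near the 16.0% lower and 17.7% higher of all genes. Mrps12 (−0.48) and Sars2 (1.00), whose starts lie 172 bases apart, had differences of opposite sign. Mrps7 (−0.37, not called) and Gga3 (1.15) also differed in sign. Mrpl36 (−0.52) and Ndufs6 (−1.22), a subunit of complex I, and Mrpl47 (−0.65) and Ndufb5 (−1.18), another, were lower together. These pairs were chosen after their values were seen, and the labels do not say whether the counting used strand.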

How the data were processed

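RNA from 6 hearts was sequenced after library construction by the submitters. Gene-level values were made with Salmon 1.5.2 on mm10, per the submitters' processing notes; how the deposited signal was normalized is not given in the sources used here. Of the table's 20362 lines, 108 broken ones without values were left out. In all, 20146 of 20254 genes matched GENCODE M21 (release 21, mm10), which gave symbols, coordinates and lengths. No value above 0 was whole, so no count model was used. limma 3.58.1 in R 4.3.3 (trend, robust) was fitted to log2(value + 1) of 13823 genes at 10 or more in at least 3 libraries, with Benjamini-Hochberg adjustment over all of them at 0.05. Genotype was fitted with age, age with genotype, and both with their interaction. Fold changes are on the log2(value + 1) scale. The fit was tested on simulated data. A precision per value cannot be given, since the depth is unknown.

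The members and lists were chosen with earlier results of these data known. Genes named are up to 8 called members in each direction per comparison (with under 5 calls, the 5 members of smallest p), those of the 3 highest and 3 lowest levels per kb of exon, members at functional sites, members whose genotypes do not overlap, and up to 4 called genes of each list with its most abundant gene. Length and GC correction was added after seeing the data. Lists, motifs and shared words are descriptions without a test.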

Additional observations from a re-analysis of the deposited data

How the results depend on the processing

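Between KO and WT no member was called under any of the 16 alternatives, and the median of the members stayed below 0 (−0.22 to −0.065 when each library was left out in turn; 0 called throughout). The labels give the genotypes the same replicate numbers, but the numbers were not taken to pair the hearts. Same-numbered libraries deviated together with correlations of 0.390, 0.383 and 0.617, as did the crossed 14-month libraries (0.382 and 0.369), and at 14 months alone the correlation was 0.0147. With a replicate block in place of age, 0 members were called, the median was −0.19 and the smallest adjusted p of a member was 0.886. For age, the 51 calls became 32 with length and GC trends removed and 33 with both replicate 2 libraries left out; leaving out each library gave 35 to 61 members called lower, with medians of −0.78 to −0.37. Over the 15 alternatives, 21 members were called lower in every one and 51 stayed below 0. With length and GC trends removed 24 members lay above 0, against 7 as reported, and 9 of those called lower were among them, including Mrpl42 (0.46) and Mrps22 (0.0834). For the interaction no member was called under any alternative; the median was −0.31 after quantile normalization, −0.11 scaled without mitochondrially encoded genes, −0.12 with length and GC trends removed and −0.40 to −0.36 when each 14-month library was left out. Causes were not tested. The depth behind the values is unknown and 1 library per genotype at 5 months limits every age result.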
